A study of Mus musculus with 18 samples.

Results

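Pancreatic islets of mice fed a high-fat diet (HFD) were compared between a TRAF3 knockout aimed at insulin-producing cells and floxed littermate controls. The comparison took 6 of the 18 arrays of the series, the 3 labelled as HFD-fed TRAF3 knockouts and the 3 labelled as HFD-fed floxed controls, and used 1 value per gene for 22180 genes. The knockouts carried TRAF3 alleles flanked by loxP sites and RIP-Cre, a Cre recombinase under the rat insulin promoter, which is active in beta cells and, in some lines, in parts of the brain. The controls were littermates with floxed alleles, and the labels state neither which gene was floxed nor whether Cre was absent. All mice were on a C57BL/6 background, of both sexes and 16 weeks old, and had eaten a diet with 45% of its energy as fat for 8 weeks from the age of 8 weeks. The remaining arrays, also 3 per group, came from HFD-fed TRAF2 knockouts and from TRAF2 knockouts, TRAF3 knockouts and controls on chow. Genotypes follow the sample labels, because the series text names TRAF2 for both knockouts. Whether every sample came from its own animal is not stated, so p-values measure the spread between samples, which may be technical.

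TRAF3 is an adaptor protein that, together with TRAF2 and the ubiquitin ligases cIAP1 and cIAP2, marks NF-kB inducing kinase (NIK, encoded by Map3k14) for degradation. When this complex is lost, NIK accumulates and drives processing of the p100 protein, encoded by Nfkb2, to p52, which enters the nucleus with RelB. This branch is called non-canonical NF-kB signalling, and TRAF3 also acts downstream of Toll-like receptors in the induction of type I interferon. Per the series text, the knockouts served to keep NIK switched on in beta cells.

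The arrays read as islet tissue with exocrine RNA and other cell types present. Expression is given as log2 array signal, on which 1 unit is a factor of 2, and the median of all probe sets lay between 4.80 and 4.96 on every array. Ins2 read 11.69 to 11.98 in knockouts and 11.74 to 11.92 in controls, and glucagon (Gcg), somatostatin (Sst) and amylin (Iapp) read above 12 on all 6 arrays. The acinar protease gene Cpa1 read 12.85 to 13.51 in knockouts and 13.41 to 13.47 in controls. Of the 3 knockouts, knockout 3 correlated least with its group (mean r of 0.9655 across genes, which are not independent), and the array nearest to it was a chow control. The array nearest to knockout 1 was also outside its group, a chow TRAF2 knockout (r of 0.9862). Knockout 2 stood apart for lymphocyte genes, with 8.85 for the T cell gene Cd3e against 5.41 to 6.01 on the other 5 arrays. Knockout 1 read 5.03 for Xist and 8.23 for the Y-linked Eif2s3y, as male tissue does, whereas knockouts 2 and 3 and all 3 controls read at least 9.12 for Xist.

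Of the 22180 genes, 560 (2.52%) passed limma's moderated test at an adjusted p under 0.05. Higher levels in knockouts were called for 372 genes (1.68%) and lower levels for 188 (0.848%), of which 232 and 56 differed by a factor of 2 or more. The 3 knockout and 3 control values did not overlap in 557 of the 560, against 16.6% of all genes, 8.61% with knockouts above and 7.98% with knockouts below all controls. The largest rises were those of Tph1, the first enzyme of serotonin synthesis, Fosb, Lrrc55, Npas4 and Atf3. The largest falls were those of Retnla, Folr2, F13a1 and Cd209d, which tissue macrophages express, and of the smooth muscle actin gene Acta2. Fitting the 6 arrays alone, with far fewer degrees of freedom and without the spread of the other groups, called 129 genes higher and 15 lower. Groups differed in spread. The mean r within the group was 0.9655 to 0.9773 in HFD TRAF3 knockouts and 0.9691 to 0.9793 in chow TRAF2 knockouts. It was 0.9914 to 0.9923 in HFD TRAF2 knockouts. An SE drawn from all 18 arrays can therefore understate the spread of the groups compared. Leaving out 1 of the 6 arrays gave between 249 calls without knockout 2 and 746 without knockout 3. Calls numbered 337 without knockout 1, 312 without control 2 and 291 without control 3. The plot of levels by array shows 12 of the named genes.

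**Figure D1:**
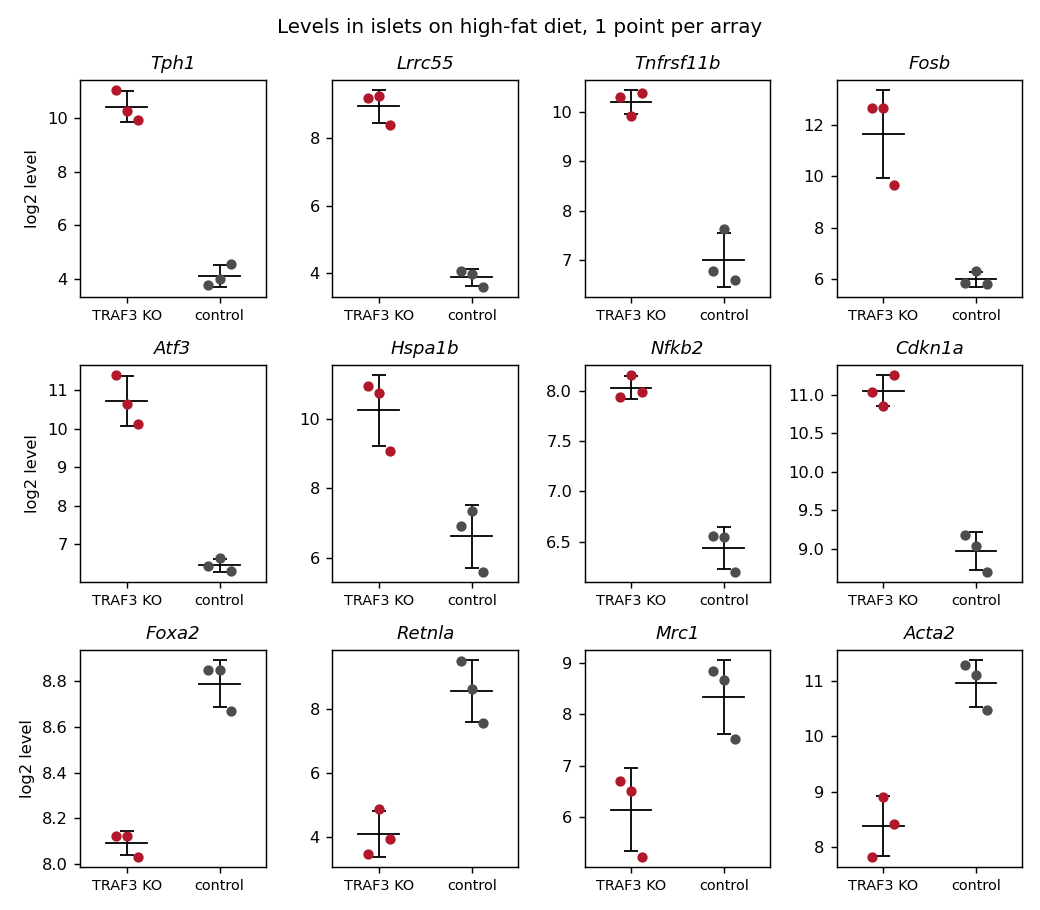
Log2 array level of 12 genes in islets of HFD-fed mice, with TRAF3 knockouts left and controls right. Points are arrays, horizontal lines are means, bars are SD (n = 3 each), and each panel has its own vertical scale. In all 12 genes the knockout and control points do not overlap: Tph1 reads 9.95 to 11.08 in knockouts and 3.76 to 4.55 in controls, and Retnla 3.49 to 4.89 in knockouts and 7.57 to 9.49 in controls.

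Most genes of the NF-kB system rose. Of 19 measured components and feedback genes, 11 were higher in knockouts, none was lower and 15 had values above all controls, where 1.68% of all genes were called higher and 8.61% lay above all controls. The median log2 fold change of the list was 1.03, against -0.02 over all genes. The count rested partly on single arrays. It was 5 without control 3, 6 without knockout 2, 7 without knockout 1 or without control 2, and 3 with the 6 arrays fitted alone. The list was compiled with results of these data known.

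Nfkb2 (probe set 17359967), the precursor of p52, read 7.94, 8.16 and 7.99 in the knockouts and 6.56, 6.55 and 6.20 in the controls. The lowest knockout lay 1.38 log2 units above the highest control, and the difference between means was 1.59 ± 0.29 (log2 fold change ± SE, adjusted p = 0.00696), or 3.02-fold. Map3k14, which encodes NIK itself, read 6.00, 6.60 and 5.51 in knockouts and 5.12, 4.63 and 5.17 in controls (1.06 ± 0.21, adjusted p = 0.0134), without overlap. Its call was lost without knockout 2 or without control 2, with log2 fold changes between 0.78 and 1.33 over the leave-outs. Relb, the partner of p52, read 6.47, 6.63 and 5.96 in knockouts and 5.51, 5.74 and 5.39 in controls. It only just passed (0.81 ± 0.21, adjusted p = 0.0499), and its call was lost on leaving out any of the 6 arrays except knockout 3. It was also lost with a sex score as a covariate (adjusted p = 0.0686). Traf2 lay between 7.09 and 7.19 in knockouts and between 6.46 and 7.03 in controls (0.32 ± 0.14, adjusted p = 0.306).

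Rel, the c-Rel subunit of the canonical pathway, read 9.31, 10.36 and 8.09 in knockouts and 7.26, 7.50 and 6.89 in controls, with knockout 3 the lowest of its group (2.04 ± 0.39, adjusted p = 0.011). Its call was lost without control 3 and with the 6 arrays fitted alone (adjusted p = 0.19). Feedback inhibitors of the pathway also rose. Tnfaip3, the ubiquitin-editing enzyme A20, read 8.28, 8.42 and 6.36 in knockouts and 5.69, 6.03 and 5.43 in controls (1.97 ± 0.40, adjusted p = 0.0158). Its call was lost without knockout 1, knockout 2 or control 3, with log2 fold changes between 1.60 and 2.63. With the 6 arrays fitted alone its adjusted p was 0.205. The atypical IkB proteins encoded by Bcl3 and Nfkbiz, which act in the nucleus with p50 and p52, were 3.19-fold and 3.13-fold higher (1.67 ± 0.34 and 1.65 ± 0.30, adjusted p = 0.0144 and 0.00707). Bcl3 lost its call without knockout 2, control 2 or control 3, and Nfkbiz with the 6 arrays fitted alone (adjusted p = 0.166). The others called higher were the inhibitors Nfkbie and Nfkbia, the A20-binding protein Tnip1 and Birc3, which encodes cIAP2, with log2 fold changes from 0.78 to 1.31. Rela, the main canonical subunit, differed by 1.13 without passing (adjusted p = 0.0507), and the kinase subunits Ikbkb (0.25) and Ikbkg (-0.23) did not pass.

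The promoters of these genes were read for the kappaB consensus, since the list is defined by a DNA-binding pathway. The motif is GGG, then a purine, any 2 bases, 2 pyrimidines and CC, searched on both strands in RefSeq windows of 300 bases from 250 before to 50 after each gene's start (GRCm38.p6). Of the 11 genes called higher, 9 had a window, and 7 of those held the motif. It stood in 9.55% of 27025 genes with a window, in 15.7% of the 281 genes with a window among all those called higher, and in 5.77% of the 156 among those called lower. Other motifs were searched in the same windows. CRE, a site of CREB family factors, stood in 7.47% of the genes called higher, against 2.03% of all genes. CArG, a serum response motif, stood in 3.91% against 1.81%, and ISRE, an interferon response motif, in 1.78% against 3.99%. An excess over all genes was thus not particular to kappaB. A match describes these letters only and does not show binding. The kappaB share among list members not called was not counted, so the 7 of 9 cannot be tied to their rise. The windows of the 5 genes with the kappaB motif and the largest fold changes are printed, 5′ to 3′ on the strand of the gene. They show where in each promoter the letters lie, with matches in capitals and overlapping matches joined into 1 run.
Rel: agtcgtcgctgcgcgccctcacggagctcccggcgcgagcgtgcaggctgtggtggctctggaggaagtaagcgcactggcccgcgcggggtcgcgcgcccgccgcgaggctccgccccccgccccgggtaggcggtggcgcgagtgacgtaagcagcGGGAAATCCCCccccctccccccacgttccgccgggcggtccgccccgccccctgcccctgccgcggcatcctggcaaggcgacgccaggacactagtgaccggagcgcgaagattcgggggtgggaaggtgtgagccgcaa
Tnfaip3: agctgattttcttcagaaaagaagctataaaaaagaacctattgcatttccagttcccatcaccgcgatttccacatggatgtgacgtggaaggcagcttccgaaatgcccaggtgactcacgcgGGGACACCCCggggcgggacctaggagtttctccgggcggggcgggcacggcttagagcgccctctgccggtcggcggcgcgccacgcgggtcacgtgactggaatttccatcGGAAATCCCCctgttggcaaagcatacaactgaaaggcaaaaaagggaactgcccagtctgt
Bcl3: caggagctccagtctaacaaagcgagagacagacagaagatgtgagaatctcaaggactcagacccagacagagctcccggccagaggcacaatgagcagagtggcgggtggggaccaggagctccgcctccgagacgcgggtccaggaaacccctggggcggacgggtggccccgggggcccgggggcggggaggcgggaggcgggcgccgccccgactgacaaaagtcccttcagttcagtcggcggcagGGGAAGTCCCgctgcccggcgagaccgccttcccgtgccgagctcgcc
Nfkb2: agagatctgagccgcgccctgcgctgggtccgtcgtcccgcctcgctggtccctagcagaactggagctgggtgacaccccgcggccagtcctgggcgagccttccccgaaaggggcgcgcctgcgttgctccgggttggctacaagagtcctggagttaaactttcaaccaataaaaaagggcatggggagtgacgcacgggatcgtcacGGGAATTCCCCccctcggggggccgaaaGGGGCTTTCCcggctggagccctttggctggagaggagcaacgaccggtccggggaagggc
Nfkbie: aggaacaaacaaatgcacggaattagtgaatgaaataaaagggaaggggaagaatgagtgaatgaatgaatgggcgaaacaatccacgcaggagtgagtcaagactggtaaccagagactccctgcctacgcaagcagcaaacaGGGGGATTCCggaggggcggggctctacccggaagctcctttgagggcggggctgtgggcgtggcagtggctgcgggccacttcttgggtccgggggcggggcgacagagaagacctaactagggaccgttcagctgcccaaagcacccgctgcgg
Rel held 2 overlapping matches and Nfkb2 held 3, of which 2 overlap. Tnfaip3 held 2 separate matches, and Bcl3 and Nfkbie held 1 each. The windows of Rel (chr11:23770920-23771219), Tnfaip3 (chr10:19015361-19015660) and Bcl3 (chr7:19822706-19823005) lie on the minus strand, and those of Nfkb2 (chr19:46304487-46304786) and Nfkbie (chr17:45555450-45555749) on the plus strand.

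Immediate early genes, whose transcripts appear within minutes of calcium influx, growth factors or stress, gave the highest share of calls of any list. Of 17 measured, 16 were higher in knockouts, against 1.68% of all genes, and none was lower. All 17 had knockout values above all controls, against 8.61% of all genes, and the median log2 fold change was 2.28. Fosb (probe set 17487211), an AP-1 subunit, read 12.64, 12.65 and 9.68 in knockouts and 5.85, 6.34 and 5.83 in controls. Knockout 3 lay well below the other knockouts and still above every control, and the difference was 50.2-fold (5.65 ± 0.99, adjusted p = 0.00607). Without knockout 3 the log2 fold change was 6.64. Atf3, a stress-induced CREB family factor, read 11.41, 10.64 and 10.12 in knockouts and 6.43, 6.64 and 6.30 in controls (19.2-fold, 4.26 ± 0.60, adjusted p = 0.0016). Jun read 11.98, 11.85 and 11.10 in knockouts and 8.28, 8.81 and 8.42 in controls, with 2.29 units between the nearest arrays of the groups (8.83-fold, 3.14 ± 0.30, adjusted p = 0.000194).

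The orphan nuclear receptor Nr4a1 read 12.08, 11.93 and 9.76 in knockouts and 7.24, 8.60 and 6.93 in controls (12.7-fold, 3.66 ± 0.67, adjusted p = 0.00789), and 4.41 was its log2 fold change without knockout 3. Nr4a3 was 8.21-fold higher (3.04 ± 0.53, adjusted p = 0.00596), or 3.82 on the log2 scale without knockout 3. Npas4, a neuronal and beta cell factor induced by calcium and outside this list, read 10.59, 10.76 and 8.24 in knockouts and 5.41, 5.72 and 4.54 in controls. It was 24.9-fold higher (4.64 ± 0.74, adjusted p = 0.00341). Csrnp1, a nuclear protein induced by AXIN1 and also outside the list, was 9.14-fold higher, at 8.12 to 9.68 in knockouts and 5.76 to 6.06 in controls. In all 7 of these genes knockout 3 was the lowest knockout and above every control. Leaving out 1 of the 6 arrays kept 11 to 15 of the list's genes called, and fitting the 6 arrays alone kept 8.

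Heat shock and unfolded protein genes rose only in part. Hspa1b and Hspa1a, inducible Hsp70 genes that are near-identical copies and may share signal, were 12.4-fold and 8.54-fold higher. Hspa1b read 10.94, 10.73 and 9.07 in knockouts and 6.92, 7.34 and 5.59 in controls (3.63 ± 0.51, adjusted p = 0.00154). Bag3, an Hsp70 cochaperone, was 2.05-fold higher (1.04 ± 0.17, adjusted p = 0.00396), whereas Chordc1, an Hsp90 partner, was lower (-0.80 ± 0.18, adjusted p = 0.0246). These were the 4 calls among 14 heat shock genes, 3 higher and 1 lower, against 1.68% and 0.848% of all genes. The list's median was 0.14. At an unadjusted p under 0.05, 6 were higher and 3 lower, where 3338 of all 22180 genes passed in either direction. Chordc1 lost its call without knockout 1, knockout 2, control 1 or control 3 and with the macrophage marker score (adjusted p = 0.06), and 1 gene of the list was called with the 6 arrays fitted alone.

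Among 18 genes of the integrated stress response, which reduces translation through eIF2α phosphorylation, 4 rose, against 1.68% of all genes, and none fell. Without knockout 1, knockout 2 or control 3, 2 rose. Ppp1r15a, the phosphatase subunit GADD34 that ends the response, read 8.95, 8.73 and 7.83 in knockouts and 6.21, 6.55 and 6.01 in controls (4.74-fold, 2.24 ± 0.29, adjusted p = 0.0011). Its groups were well apart, with knockout 3 the lowest. Ddit3, which encodes the pro-apoptotic factor CHOP, was also 4.74-fold higher (2.24 ± 0.45, adjusted p = 0.0147), but its call was lost without knockout 1, knockout 2 or control 3, with log2 fold changes between 1.86 and 2.91. Atf4, the central factor of the response, rose 2.04-fold (adjusted p = 0.0061), and Cebpb rose 2.41-fold (adjusted p = 0.0259), a call that only leaving out control 1 did not end. Endoplasmic reticulum genes changed less: of 19, only the chaperone Hspa5 (BiP, 0.76 ± 0.16), the sensor Ern1 (0.70 ± 0.16) and the ubiquitin ligase Syvn1 (0.66 ± 0.15) rose, with adjusted p between 0.0214 and 0.0263. None of the 19 was called without knockout 1, knockout 2 or control 3.

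Arrest and damage genes gave 2 calls of 14, both higher and stable, where 1.68% of all genes were called higher. Cdkn1a, the cell cycle inhibitor p21, read 11.04, 10.86 and 11.26 in knockouts and 9.18, 9.04 and 8.70 in controls (4.22-fold, 2.08 ± 0.30, adjusted p = 0.00178). The lowest knockout lay 1.68 units above the highest control. Gadd45b, a stress sensor and NF-kB target, was 3.81-fold higher (1.93 ± 0.24, adjusted p = 0.000839). Neither call was lost on leaving out any 1 of the 6 arrays. Bhlhe40, a repressor of the clock and hypoxia programmes, was 5.84-fold higher (2.55 ± 0.35, adjusted p = 0.00126) and the only call among 12 hypoxia and glycolysis genes. None of 16 proliferation genes passed, or did so at an unadjusted p under 0.05, with Mki67 at 0.27 ± 0.49 and Top2a at -0.16 ± 0.41. With the macrophage marker score as a covariate Top2a stood at 0.88 (adjusted p = 0.00472), the other sign.

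**Figure D2:**
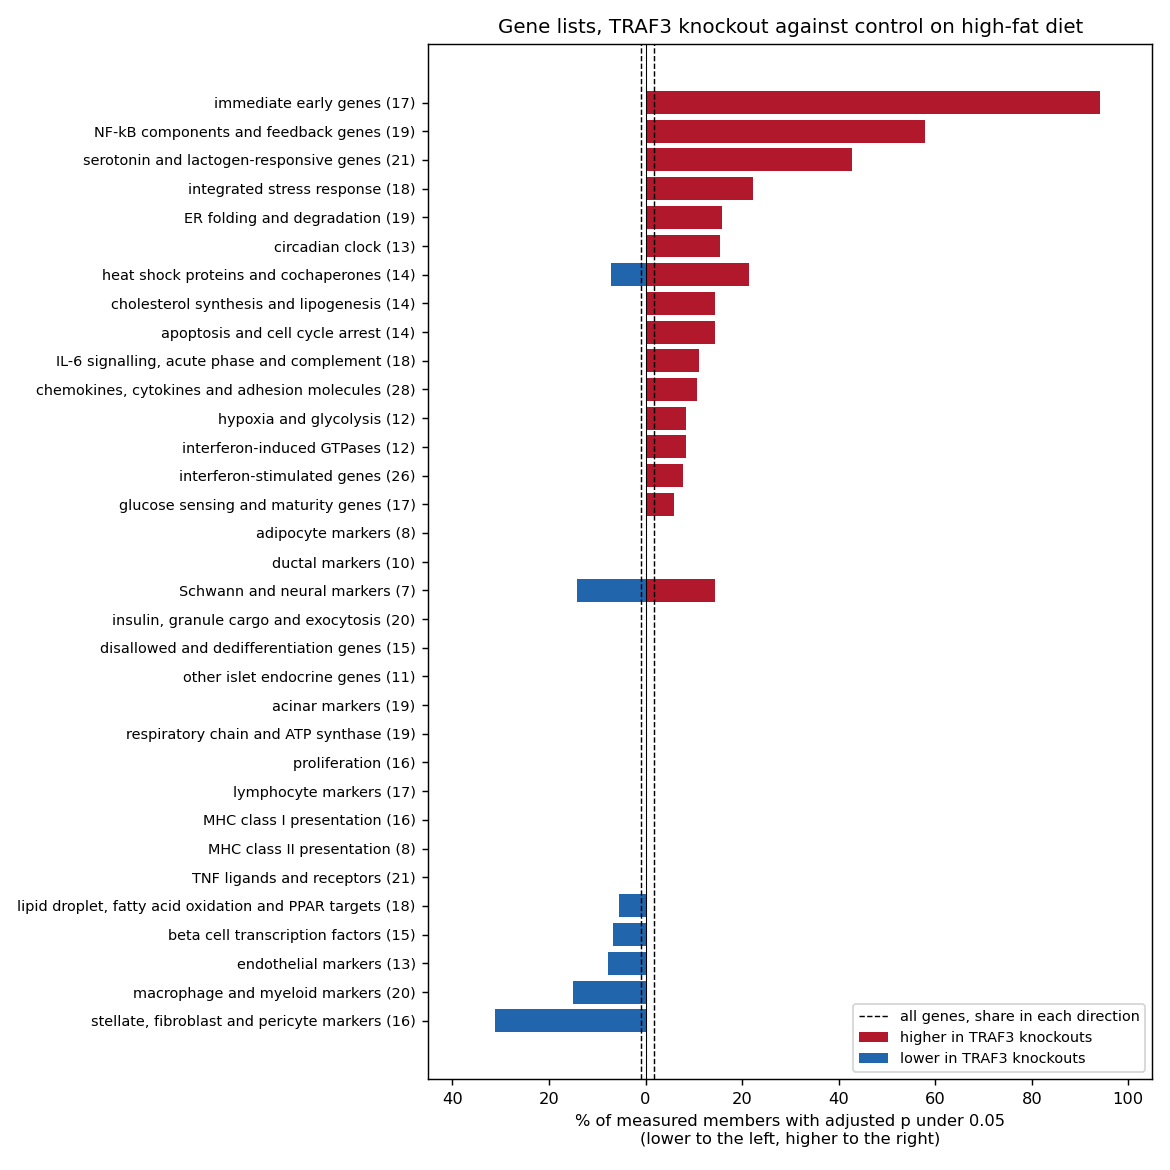
Share of each list's measured genes called higher (red, right) or lower (blue, left) in HFD TRAF3 knockouts against HFD controls, in percent, with the number measured in parentheses. Dashed lines mark the shares of all 22180 genes, 1.68% higher and 0.848% lower. Immediate early genes (16 of 17), NF-kB genes (11 of 19) and serotonin and lactogen genes (9 of 21) have the longest bars to the right, and stellate, fibroblast and pericyte markers (5 of 16) the longest to the left.

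The list of serotonin and lactogen-responsive genes gave 9 rises, against 1.68% of all genes, and no fall among 21 measured, with a median of 1.05. Some of its genes, such as Tph1, rise in beta cells during pregnancy through prolactin receptor and STAT5 signalling. Others handle or sense serotonin. Tph1 (probe set 17491163) read 11.08, 10.27 and 9.95 in knockouts and 3.76, 3.99 and 4.55 in controls. The groups were 5.40 units apart at their nearest, and the difference was 80.4-fold (6.33 ± 0.88, adjusted p = 0.00154). Its size is uncertain, because the control mean was dimmer than the median of each of the 18 arrays. Lrrc55 (probe set 17387565), which encodes a regulatory subunit of BK potassium channels, read 9.18, 9.24 and 8.37 in knockouts and 4.07, 3.98 and 3.61 in controls. That was 33.0-fold (5.04 ± 0.58, adjusted p = 0.000583), also against dim controls, and its other probe set gave only 1.18 (adjusted p = 0.00397).

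Tnfrsf11b, the secreted RANKL decoy osteoprotegerin, read 10.31, 9.92 and 10.38 in knockouts and 6.79, 7.63 and 6.61 in controls (9.14-fold, 3.19 ± 0.50, adjusted p = 0.00297). Here knockout 3 was the highest array. The guanylate-binding protein gene Gbp8 was 10.3-fold higher (3.36 ± 0.53, adjusted p = 0.00311) and the matrix protein gene Matn2 7.55-fold (2.92 ± 0.51, adjusted p = 0.00607). The remaining calls were Neb, which encodes nebulin, the STAT5 feedback genes Cish and Socs2, and Ivd, a leucine-breakdown enzyme, at log2 fold changes of 2.48, 1.06, 1.05 and 1.19. Tph2 (1.40, adjusted p = 0.0621), the aromatic amino acid decarboxylase Ddc (-0.15) and the vesicular transporter Slc18a2 (-0.29) did not pass, nor did the serotonin receptors Htr2b, Htr1d and Htr3a or Stat5a and Stat5b. Between 8 and 10 genes stayed called on leaving out any 1 of the 6 arrays, and 9 with the 6 arrays fitted alone. Outside the list, Syt10, a synaptotagmin, and Sftpd, a collectin, were 9.44-fold and 8.89-fold higher (adjusted p = 0.000843 and 0.00429).

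Few interferon and antigen presentation genes passed the test. Of 26 interferon-stimulated genes, 2 rose, where 1.68% of all genes were called higher, and none fell. The median log2 fold change was 0.02. At an unadjusted p under 0.05, 5 were higher and 1 was lower. Rsad2, the antiviral enzyme viperin, read 8.18, 8.25 and 7.82 in knockouts and 6.59, 7.36 and 6.87 in controls (1.14 ± 0.27, adjusted p = 0.0346), and Irf1 was 2.07-fold higher (1.05 ± 0.25, adjusted p = 0.0327). Both sets of values were apart, but neither call survived leaving out knockout 1, knockout 2, control 1 or control 3, and that of Irf1 was also lost without control 2. None of 16 MHC class I and 8 class II presentation genes was called, with H2-K1 at 0.01 ± 0.17 and B2m at 0.11 ± 0.23. At an unadjusted p under 0.05, 2 class I genes and no class II gene passed, where 3338 of all 22180 genes did in either direction. Gbp11 was the 1 call among 12 interferon-induced GTPases (2.46 ± 0.50, adjusted p = 0.0144), of which 3 were higher at an unadjusted p under 0.05. That call was lost without knockout 1, knockout 2, control 2 or control 3.

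Cytokine genes gave 3 rises among 28, where 1.68% of all genes were called higher, and none without knockout 2 or without control 1. The knockout values of 13 lay above all controls, against 8.61% of all genes. Il6 read 6.11, 7.18 and 5.30 in knockouts and 3.10, 3.04 and 3.18 in controls, which is dimmer than every array's median (3.09 ± 0.66, adjusted p = 0.0193). The groups were 2.12 units apart at their nearest, and only leaving out knockout 3 kept the call. Cxcl11, a ligand of CXCR3, was 4.26-fold higher (2.09 ± 0.43, adjusted p = 0.0161), lost without knockout 1, knockout 2 or control 1, and with the macrophage marker score as a covariate (adjusted p = 0.0622). Il1a was 3.10-fold higher (adjusted p = 0.0449), and only leaving out knockout 1 kept its call. Of 18 genes of IL-6 signalling and the acute phase, 2 rose. Socs3, the feedback inhibitor of the pathway, read 8.07, 8.42 and 7.68 in knockouts and 6.10, 6.02 and 5.57 in controls (4.45-fold, 2.15 ± 0.29, adjusted p = 0.00118). A second probe set of Socs3 gave 0.97 (adjusted p = 0.123). Stat3, the factor downstream of the IL-6 receptor, was 1.91-fold higher, at 11.11 to 11.20 in knockouts and 9.99 to 10.36 in controls (0.93 ± 0.20, adjusted p = 0.0177). Its call was lost without knockout 1, knockout 2 or control 3. No member of the 21 TNF ligands and receptors passed. At an unadjusted p under 0.05, 6 were higher and none lower, where 3338 of all 22180 genes passed in either direction. The lymphotoxin receptor and CD40 genes were among the rest, with Ltbr at -0.10 ± 0.19 and Cd40 at -0.06 ± 0.29.

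Beta cell transcription factors gave 1 call, a fall, where 0.848% of all genes were called lower. Foxa2, a forkhead factor upstream of much of the islet programme, read 8.12, 8.12 and 8.03 in knockouts and 8.85, 8.85 and 8.67 in controls. Its groups were 0.55 units apart with little spread (-0.70 ± 0.12, adjusted p = 0.00649, a 1.62-fold lower level). The call held on leaving out any of the 6 arrays and was lost when these were fitted alone (adjusted p = 0.0992). The remaining 14 of 15 beta cell transcription factors did not pass, and the list's median was 0.06. None of 20 genes of insulin, granule cargo and exocytosis passed, and 1 had an unadjusted p under 0.05, with Ins2 at 0.00 ± 0.17 and Iapp at 0.01 ± 0.09. No gene passed among 11 other endocrine genes, with Gcg at -0.04 ± 0.10 and Sst at -0.05 ± 0.15. At an unadjusted p under 0.05, 4 of them were lower and none higher, where 3338 of all 22180 genes passed in either direction. Of the 11, 9 had negative log2 fold changes (median -0.28). In 5 the knockout values lay below all controls, against 7.98% of all genes. None passed among 15 genes that mature beta cells keep low (1 at an unadjusted p under 0.05), with Ldha at -0.22 ± 0.29 and Slc16a1 at 0.36 ± 0.39. Of 17 glucose sensing and maturity genes Npas4 alone was called. A difference that missed the threshold does not show equal levels.

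Macrophage genes gave the largest falls. In whole islets, fewer cells of a type and less RNA per cell cannot be told apart. Retnla (probe set 17326069), a secreted protein of alternatively activated macrophages, read 3.49, 4.89 and 3.94 in knockouts and 9.49, 8.62 and 7.57 in controls. It was 21.9-fold lower (-4.45 ± 0.41, adjusted p = 0.000194) with groups 2.68 units apart, and knockout levels were so dim that the size of the fold is uncertain. Folr2, a folate receptor of resident macrophages, read 6.85, 7.50 and 5.54 in knockouts and 10.20, 9.96 and 8.97 in controls (8.47-fold lower, -3.08 ± 0.45, adjusted p = 0.00189). F13a1, coagulation factor XIII A, read 5.98, 5.93 and 5.56 in knockouts and 9.42, 8.96 and 7.86 in controls (7.61-fold lower, -2.93 ± 0.36, adjusted p = 0.000814). In all of these, control 3 was the lowest control and still above every knockout. Cd209d, a C-type lectin, was 6.93-fold lower, and the carbonyl reductase Cbr2 4.69-fold lower (-2.79 ± 0.41 and -2.23 ± 0.25, adjusted p = 0.00182 and 0.000583).

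Of the 20 macrophage and myeloid markers fixed as a list, 3 fell, against 0.848% of all genes, and none rose. A negative log2 fold change was found in 17, with a list median of -0.75. The falls numbered 1 without control 1 or control 2, and with the 6 arrays fitted alone none fell and 1 rose. The mannose receptor gene Mrc1 read 6.70, 6.51 and 5.22 in knockouts and 8.84, 8.66 and 7.51 in controls (-2.20 ± 0.43, adjusted p = 0.012). Knockout 3 and control 3 were each the lowest of their group. Cd163 (-1.82 ± 0.32, adjusted p = 0.00623) and Adgre1, which encodes F4/80 (-1.59 ± 0.33, adjusted p = 0.0172), also fell. Calls of Mrc1 and Adgre1 were lost without control 1 or control 2, with log2 fold changes of -2.61 to -1.74 and -1.99 to -1.09 over the leave-outs. The pan-myeloid genes Tyrobp (-1.06), Cd68 (-0.75) and C1qa (-0.36) did not pass, and Cd14 was at 1.28 without passing. The mean level of the 20 markers was 6.02 to 7.13 in knockouts and 6.96 to 7.76 in controls, so that the groups overlapped, and the lowest reading was 2.50, of S100a8. With the macrophage marker score, a mean over the 20 markers, as a covariate, chosen after seeing the data, Retnla differed by -3.94 and was still called. Of the 3 called markers, which are part of that score, Mrc1 (-1.16) and Cd163 (-1.15) stayed called and Adgre1 did not (-1.16, adjusted p = 0.0667). Rgs18, a regulator of G protein signalling outside the list, also lost its call (adjusted p = 0.077).

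Contractile genes of pericytes and smooth muscle fell as well. Acta2 read 7.82, 8.90 and 8.41 in knockouts and 11.29, 11.10 and 10.48 in controls (5.97-fold lower, -2.58 ± 0.39, adjusted p = 0.00254), with 1.58 units between the groups. Myh11, the smooth muscle myosin, was 3.70-fold lower (-1.89 ± 0.25, adjusted p = 0.00118). Cnn1, Myl9 and Tagln were also lower (log2 fold changes of -1.49, -1.46 and -1.43). These were the 5 calls among 16 stellate, fibroblast and pericyte markers, where 0.848% of all genes were called lower. The count was 4 without control 1 or without control 2, and only 1 with the 6 arrays fitted alone. The list's mean level was 6.32 to 7.33 in knockouts and 6.89 to 8.11 in controls, with knockout 3 and control 3 the lowest of their groups. Its median log2 fold change was -0.24. Outside the list, Pln, the calcium pump inhibitor phospholamban, was 4.08-fold lower (adjusted p = 0.00184). Cldn5, a tight junction gene, was the 1 call of 13 endothelial markers (-1.13 ± 0.23, adjusted p = 0.0156), lost without knockout 1, control 1 or control 2.

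**Figure D3:**
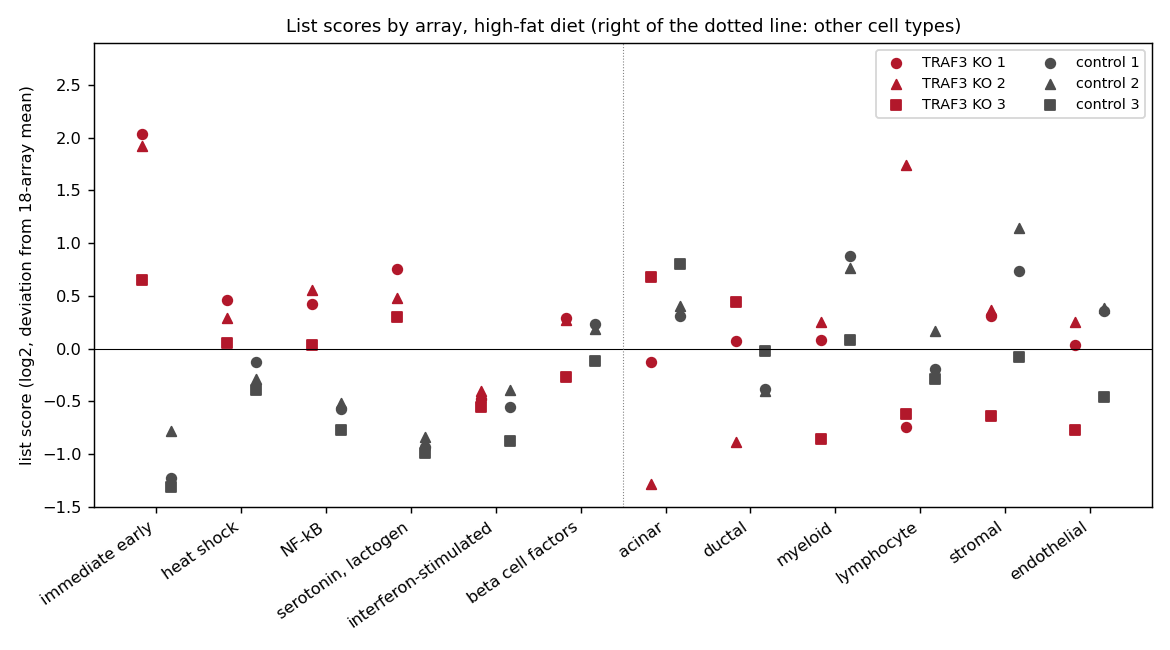
Score of 12 gene lists on each HFD array (log2, mean deviation of the list's genes from their mean over all 18 arrays), with knockouts in red at left and controls in grey at right of each list, and a marker shape per replicate number. Immediate early scores are 0.65 to 2.03 in knockouts and -1.31 to -0.78 in controls. To the right of the dotted line, markers of other cell types overlap between groups, and knockout 2 stands apart with a lymphocyte score of 1.74.

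Other genes fell too. Cd36, a fatty acid transporter of macrophages, endothelium and fat, read 7.50, 7.67 and 6.64 in knockouts and 9.31, 9.43 and 9.29 in controls (4.22-fold lower, -2.08 ± 0.37, adjusted p = 0.00676). It was the only call among 18 lipid genes. Sostdc1, a secreted BMP and Wnt antagonist, read 6.75, 6.17 and 7.30 in knockouts and 8.40, 8.54 and 10.63 in controls. Its size rested on control 3, the highest array, and its log2 fold change was -2.45 ± 0.52 (adjusted p = 0.0196) with that array and -1.73 without it. Leaving out control 3, knockout 1 or knockout 2 ended the call. Sdr9c7, a short-chain dehydrogenase, fell 5.45-fold (adjusted p = 0.0142), lost without knockout 2 or control 3. The prostaglandin-degrading enzyme Hpgd was 3.54-fold lower (-1.83 ± 0.27, adjusted p = 0.00187).

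The remaining lists moved little, beside 1.68% of all genes called higher and 0.848% called lower. Hmgcs1 (1.11 ± 0.27) and Mvd (0.64 ± 0.14), enzymes of cholesterol synthesis, rose among 14 sterol genes (adjusted p = 0.0433 and 0.0217), and both calls were lost without knockout 2, control 2 or control 3, that of Hmgcs1 also without knockout 1 or control 1. With a sex score the adjusted p of Hmgcs1 was 0.0544, and with the macrophage marker score that of Mvd was 0.0597. The clock repressors Cry1 (0.99 ± 0.17, adjusted p = 0.00563) and Per1 (1.93 ± 0.49, adjusted p = 0.0487) rose among 13 clock genes. The Per1 groups overlapped, with 8.50 in knockout 3 and 8.64 in control 1, and only leaving out knockout 3 kept the call. With a sex score its adjusted p was 0.068. No respiratory chain gene of 19 passed, although 10 were lower at an unadjusted p under 0.05 and 18 had negative log2 fold changes (median -0.26). Over the whole table, 3338 of 22180 genes had an unadjusted p under 0.05, in either direction. Among Schwann and neural markers, Ngfr, the p75 neurotrophin receptor, was 2.46-fold higher and the Schwann cell cadherin Cdh19 1.98-fold lower, a call lost without knockout 2, knockout 3, control 2 or control 3. No acinar marker of 19 passed (2 at an unadjusted p under 0.05), all had negative log2 fold changes (median -0.66), and their mean level was 10.29 to 12.25 in knockouts and 11.88 to 12.37 in controls, the lowest value being that of knockout 2. Ductal, lymphocyte and adipocyte markers gave no call, with 2, 0 and 1 genes at an unadjusted p under 0.05. The role of these cell types in the results was not tested beyond the covariates given.

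The effect of the knockout was set against that on chow by a knockout by diet interaction, which passed for 1287 genes (5.80%), with 558 positive differences (2.52%) and 729 negative (3.29%). With arrays centred on their medians 54.3% of the differences were positive, against 43.4% without. The share was 61.6% with the macrophage marker score as a covariate, 55.8% without HFD TRAF3 knockout 3 and 30.8% without HFD control 3. The count depended on single arrays. It was 414 without chow TRAF3 knockout 3, 614 without chow TRAF3 knockout 1, 681 without HFD TRAF3 knockout 2, 714 without chow control 2, 730 without HFD control 3, 851 without HFD control 2 and 1963 without HFD TRAF3 knockout 3. Of the immediate early genes, 9 of 17 passed with a larger effect on HFD, between 5 without HFD knockout 1 and 14 without HFD knockout 3. Fosb on chow read 6.60, 6.94 and 6.40 in knockouts and 7.15, 8.38 and 8.38 in controls, so that its effect there was -1.32 ± 0.99, and the interaction was 6.97 (adjusted p = 0.013). Atf3 (interaction 4.40, adjusted p = 0.0112) and Jun (3.39, adjusted p = 0.00241) also differed. Outside the list, so did Npas4 (6.45, adjusted p = 0.00585) and Rsph4a, a radial spoke protein of cilia (4.60, adjusted p = 0.0153). None of these 5 calls ended on leaving out any of the 12 arrays compared.

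Tph1 had an interaction of 4.61 (adjusted p = 0.0412), with 6.86, 7.92 and 6.93 in chow knockouts and 4.15, 4.12 and 8.30 in chow controls. Chow control 3 stood far above the other chow controls, and without it the interaction was 3.22 (adjusted p = 0.0399). Leaving out any 1 of 7 of the 12 arrays ended the call. Chow control 3 was also the highest chow control for Lrrc55 (7.12 against 4.94 and 3.53) and Gbp8 (7.81 against 5.20 and 5.25). For Tnfrsf11b it read 9.43 against 7.04 and 7.92. The array nearest to it was a chow TRAF2 knockout (r of 0.9923). Chow effects and interactions of these genes rest partly on this array. The other lactogen genes did not pass the interaction, and without HFD TRAF3 knockout 3 the list had 5 calls.

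Interferon-stimulated genes went the opposite way: 18 of 26 passed with a smaller effect on HFD than on chow. Of all genes, 3.29% had a negative interaction. The count lay between 15 and 20 on leaving out 1 of the 12 arrays. The median effect was 0.02 on HFD and 1.86 on chow. Irf7, Bst2 and Isg15 are given here as examples chosen after their values were seen. Irf7, a master regulator of type I interferon, read 6.61, 6.95 and 6.32 in HFD knockouts and 6.74, 7.22 and 6.00 in HFD controls, where the groups overlapped. It read 11.03, 10.99 and 11.08 in chow knockouts and 6.44, 6.91 and 6.69 in chow controls, and the interaction was -4.38 (adjusted p = 0.00762). Bst2, the virus-tethering protein tetherin, had an interaction of -3.66 (adjusted p = 0.00138), and Isg15, a ubiquitin-like modifier, one of -2.63 (adjusted p = 0.00385). Among MHC class I genes 8 of 16, and among interferon-induced GTPases 8 of 12, also passed with smaller effects on HFD. The MHC count was 2 without chow TRAF3 knockout 3.

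NF-kB genes gave no positive and 1 negative interaction among 19, that of Ikbkg (-0.95, adjusted p = 0.0207), a call lost without HFD TRAF3 knockout 2 or chow TRAF3 knockout 3. Without HFD TRAF3 knockout 3, 3 positive interactions passed. Nfkb2 differed by 1.59 ± 0.29 on HFD and 1.48 ± 0.29 on chow, with an interaction of 0.12 (adjusted p = 0.912). Of 15 beta cell transcription factors, 5 passed with a positive interaction, against 2.52% of all genes. Among them were Mafa (2.23, adjusted p = 0.0168), an activator of the insulin gene, and Pdx1 (1.38, adjusted p = 0.0351), also chosen after their values were seen. Their log2 effects were 0.31 and -0.03 on HFD and -1.93 and -1.41 on chow. Leaving out any 1 of 8 of the 12 arrays ended the call of Pdx1 and none ended that of Mafa. That list's count was 1 without chow TRAF3 knockout 1 and 8 without HFD TRAF3 knockout 3.

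Macrophage genes had negative interactions, 9 of the 20 markers against 3.29% of all genes. Retnla read 4.52, 4.72 and 4.86 in chow knockouts and 4.73, 3.86 and 4.01 in chow controls, so that the HFD controls were the group apart, and the interaction was -4.96 (adjusted p = 0.00129). The largest negative interactions among the genes that could be named were those of Ms4a6d (-5.25), Retnla, Gpnmb (-4.89), the chemokine gene Pf4 (-4.86) and the interferon-inducible Ifi204 (-4.85). All but Retnla missed the threshold for the knockout effect on HFD and had effects of 2.92 to 4.11 on chow. The Gpnmb interaction was lost on leaving out 9 of the 12 arrays, and the count of 9 markers was 4 without HFD control 2.

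**Figure D4:**
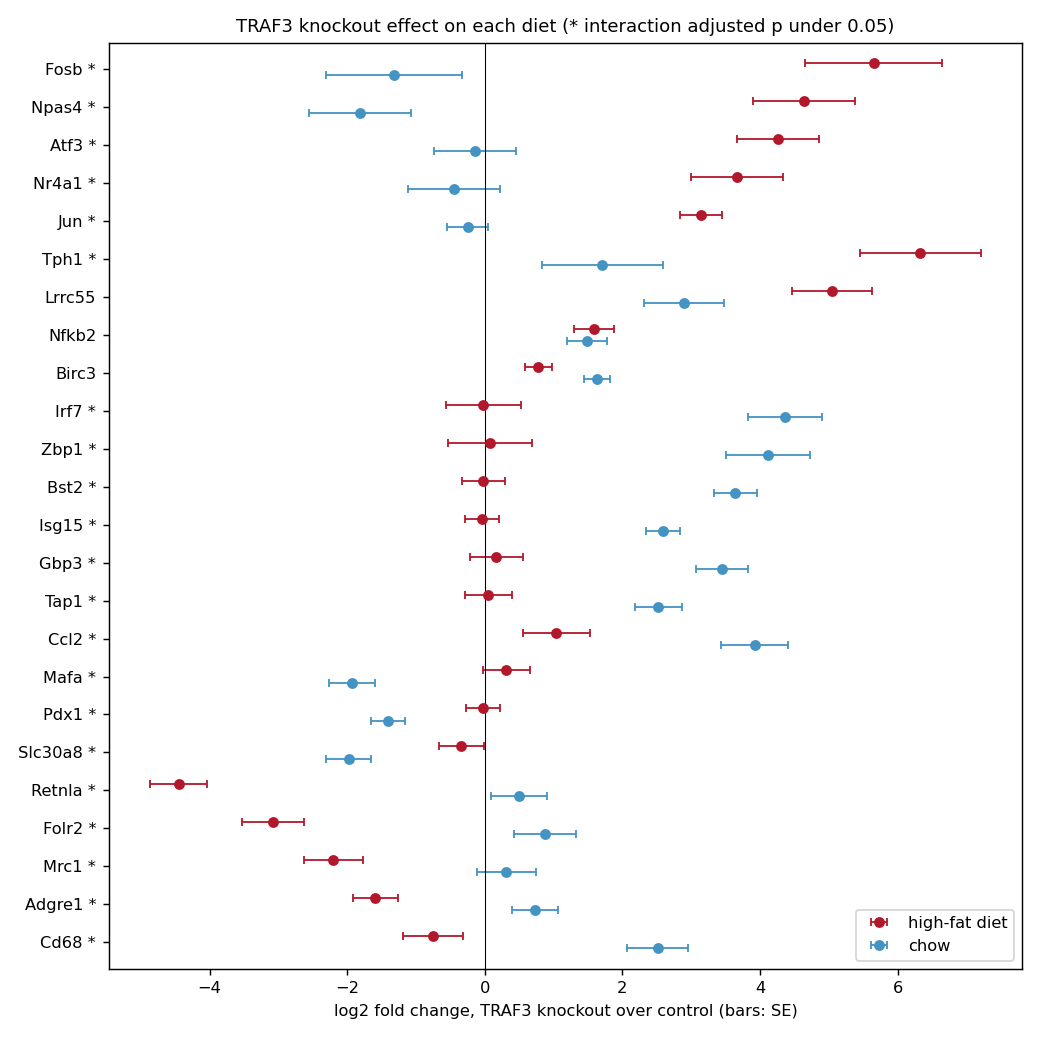
Log2 fold change (± SE) of 24 genes between TRAF3 knockouts and controls on HFD (red, upper point) and on chow (blue, lower point), with a star where the interaction had an adjusted p under 0.05. Fosb lies at 5.65 on HFD and -1.32 on chow, Irf7 at -0.02 on HFD and 4.36 on chow, Retnla at -4.45 on HFD and 0.50 on chow, and Nfkb2 at 1.59 on HFD and 1.48 on chow.

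The last comparison was with TRAF2 knockouts on the same diet, a knockout of the partner adaptor in the same cells. It called 233 genes (1.05%), 139 higher in TRAF3 knockouts (0.627%) and 94 lower (0.424%), with 60 calls without TRAF2 knockout 2, 69 without TRAF2 knockout 3, 91 without TRAF2 knockout 1, 137 without TRAF3 knockout 1 and 139 without TRAF3 knockout 2. Higher calls made up 59.7% of these and 70.8% with arrays centred on their medians, but 43.1% without TRAF3 knockout 1, 43.9% without TRAF3 knockout 2 and 45.1% with an acinar score as a covariate. Each knockout's difference from the HFD controls uses the same control arrays, so those values are set side by side with no test of likeness.

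Immediate early genes set the knockouts apart, with 11 of 17 higher in TRAF3 than in TRAF2 knockouts and none lower, against 0.627% of all genes. The count was 4 without TRAF2 knockout 2 and 15 without TRAF3 knockout 3. Atf3 read 11.41, 10.64 and 10.12 in TRAF3 knockouts and 6.55, 6.28 and 6.96 in TRAF2 knockouts, without overlap. The difference was 4.13 (adjusted p = 0.00362), and its difference from controls was 4.26 in TRAF3 and 0.14 in TRAF2 knockouts. Fosb differed by 5.08 (adjusted p = 0.0203) and Nr4a1 by 3.15 (adjusted p = 0.0321). Outside the list, Npas4 differed by 3.73 (adjusted p = 0.0228) and Csrnp1 by 2.88 (adjusted p = 0.00638). Calls of Fosb, Npas4 and Nr4a1 held on leaving out TRAF3 knockout 3 alone of the 6 arrays, whereas those of Atf3 and Csrnp1 held throughout. Hspa1a (2.72, adjusted p = 0.00187), Ppp1r15a (1.97, adjusted p = 0.00419) and Socs3 (2.04, adjusted p = 0.00268) were also higher in TRAF3 knockouts.

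Retnla read 3.49, 4.89 and 3.94 in TRAF3 knockouts and 8.94, 8.85 and 9.27 in TRAF2 knockouts, so that the groups were far apart. Among the macrophage genes, Retnla (-4.91, adjusted p = 5.01e-05), Folr2 (-3.51, adjusted p = 0.00158), F13a1 (-3.33, adjusted p = 0.000394) and Cd209d (-3.20, adjusted p = 0.00158) were lower in TRAF3 than in TRAF2 knockouts. Lyz1, a lysozyme gene, had a difference of -2.96 (adjusted p = 0.0387) that held on leaving out TRAF3 knockout 2 alone. Acta2 differed by -2.53 (adjusted p = 0.00583). The TRAF2 knockouts' own differences from controls for these 6 genes lay between -0.05 and 0.51.

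No serotonin or lactogen gene of 21 passed between the knockouts, which does not show equal levels. Tph1 read 11.08, 10.27 and 9.95 in TRAF3 knockouts and 11.37, 10.75 and 10.84 in TRAF2 knockouts, and the values overlapped. It differed by -0.55 (adjusted p = 0.878), Lrrc55 by 0.04 (adjusted p = 0.99) and Tnfrsf11b by -0.01 (adjusted p = 0.996), with standard errors of 0.88, 0.58 and 0.50. Against controls, Tph1 was at 6.33 in TRAF3 and 6.88 in TRAF2 knockouts, and Tnfrsf11b at 3.19 in TRAF3 and 3.20 in TRAF2 knockouts. Of the NF-kB genes 3 of 19 were higher in TRAF3 knockouts, against 0.627% of all genes. That count was 0 without TRAF3 knockout 2 and 6 without TRAF3 knockout 3. Bcl3 differed by 1.64 (adjusted p = 0.0266) and Nfkbiz by 1.46 (adjusted p = 0.0261), both calls that 5 of the 6 leave-outs ended, while Nfkb2 differed by 1.00 without passing (adjusted p = 0.135).

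**Figure D5:**
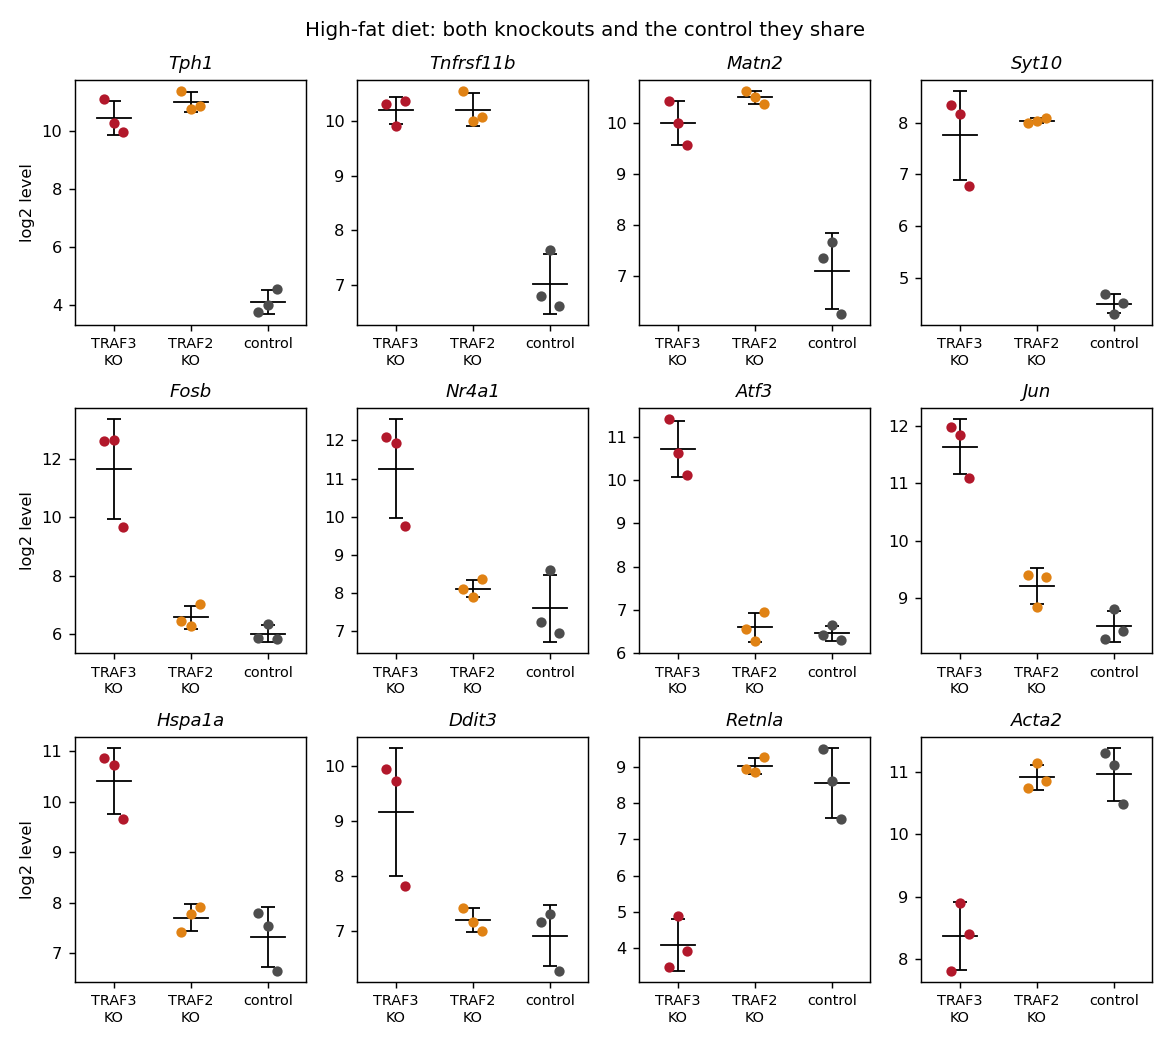
Log2 array level of 12 genes in HFD TRAF3 knockouts, HFD TRAF2 knockouts and the HFD controls they share. Points are arrays, lines are means and bars are SD (n = 3 each), and each panel has its own vertical scale. Tph1, Tnfrsf11b, Matn2 and Syt10 are high in both knockouts, Fosb, Nr4a1, Atf3, Jun, Hspa1a and Ddit3 are high in TRAF3 knockouts, and Retnla and Acta2 are low in TRAF3 knockouts, at 3.49 to 4.89 and 7.82 to 8.90.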

How the data were processed

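Islet RNA (250 ng, biotin-labelled) was measured on single-colour arrays. The authors deposited 1 log2 value per probe set and array, made with RMA per the submitters' processing notes, which also name limma. No version, genome build or statement of joint normalization is given in the sources used here. Values were used as deposited, without a filter. Of 41345 probe sets, 23521 had exactly 1 symbol in the platform annotation, 1814 several and 16010 none in the table used here. Of several probe sets for a gene the brightest over 18 arrays was kept, leaving 22180 genes. TRAF3 expression itself is not reported here.

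Groups follow the labels. limma 3.58.1 in R 4.3.3 (lmFit, eBayes) fitted 6 group means to all 18 arrays (12 residual and 3.69 prior degrees of freedom). Tests were two-sided, with Benjamini-Hochberg adjustment over the 22180 genes, and an adjusted p under 0.05 counts as called. SE is limma's moderated one, drawn from the spread within all 6 groups. Tables were made with Python 3.11.15 and pandas 2.3.3. The fit was tested on simulated data. The number of arrays limits the precision. No scan date or other batch is given.

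The comparisons, 34 lists (592 genes, 535 measured), markers and alternatives were chosen with earlier results of these data known. Named genes were the 15 largest called rises and 15 largest called falls without overlap, up to 5 called members of each list by size (its first 2 measured where none), the 5 largest differences each way in the other 2 comparisons, and a few fixed genes (Traf2, Nfkb2, Relb, Map3k14, hormones, Xist, Eif2s3y). Placeholder symbols, immunoglobulin, T cell receptor, olfactory, vomeronasal and small RNA genes were counted, not named. Other named genes are list members picked with their values known. Alternatives were array centring, repeated quantile normalization, trend and robust eBayes, dim genes left out, the mean of probe sets, every probe set, only the arrays compared, a replicate block, sex, acinar, ductal or lymphocyte scores as covariates, and each array left out. The myeloid score and leaving out replicate 3 of both HFD groups were chosen after seeing the data.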

Additional observations from a re-analysis of the deposited data

Results flagged for a closer look

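The TRAF3 knockout effect differed between HFD and chow by the interaction test for 1287 genes, and 35 of the genes named by the rule were among them. Each value is the log2 effect on HFD minus that on chow, with an adjusted p under 0.05. Effects were larger on HFD for Fosb (6.97), Npas4 (6.45), Tph1 (4.61), Rsph4a (4.60), Atf3 (4.40), Nr4a1 (4.12), Jun (3.39) and Nr4a3 (2.87). So were those of Csrnp1 (2.72), Hspa1a (2.49), Ddit3 (2.29), Ppp1r15a (2.15), Gadd45b (1.54), Hspa5 (0.94) and Syvn1 (0.83). Effects were more negative on HFD for Ms4a6d (-5.25), Retnla (-4.96), Gpnmb (-4.89), Pf4 (-4.86), Ifi204 (-4.85), Folr2 (-3.95), Lyz1 (-3.95) and Cd36 (-3.49). They were also more negative for Cd209d (-2.99), Clec4a1 (-2.95), Mrc1 (-2.50), Adgre1 (-2.32), F13a1 (-2.28), Cldn5 (-2.06), Pln (-1.95) and Ldha (-1.71), and for Cd163 (-1.71), Cbr2 (-1.61), Myh11 (-1.31) and H2-K1 (-0.90). Leaving out at least 1 of the 12 arrays ended the interaction call of Tph1, Nr4a1, Nr4a3, Csrnp1, Ddit3, Hspa5, Syvn1, Gpnmb, Ifi204, Lyz1, Mrc1, Ldha, Cd163, Cbr2, Myh11 and H2-K1. With 3 arrays per group, single arrays were not tested as outliers within a group. The causes of these differences were not tested.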

How the results depend on the processing

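The number of genes called between HFD TRAF3 knockouts and HFD controls (560) was 249 to 806 on leaving out each of the 18 arrays in turn. That of the interaction (1287) was 414 to 1963, and that between the HFD TRAF3 and TRAF2 knockouts (233) was 60 to 345. Fitting only the 6 arrays compared called 144 genes, with fewer degrees of freedom and without the spread of the other groups. Of these, 89.6% were higher in knockouts, against 66.4% in the fit of all arrays. A score for acinar markers as a covariate gave 963 calls for the comparison with controls (48.4% higher) and 618 for that with TRAF2 knockouts. A ductal score gave 1024 calls, 744 for the interaction and 403 against TRAF2 knockouts. A myeloid score, added after seeing the data, gave 1404 calls against controls, and with it Top2a stood at 0.88 (adjusted p = 0.00472) instead of -0.16. The causes of these shifts were not tested. Centring each array on its median moved the share of positive interactions to 54.3% from 43.4%, and the share of calls higher in TRAF3 than in TRAF2 knockouts to 70.8% from 59.7%.

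The other alternatives left the 3 counts within a factor of 1.5. Leaving out replicate 3 of both HFD groups, added after seeing the data, gave 437 calls against controls. With the replicate number as a block the count was 546 and 68 of the 71 named genes called stayed called. Same-numbered knockout and control arrays on HFD deviated from their group means with correlations of -0.015, 0.407 and 0.493. These 3 values cannot show whether the numbers pair the samples. Knockouts 2 and 3 correlated best with the control of their own number, and knockout 1 did not. With a sex score 512 genes were called, and of the named genes Relb, Per1 and Hmgcs1 lost their calls. With the myeloid score Adgre1, Rgs18, Cxcl11, Chordc1 and Mvd lost theirs. Of the 71 named genes called, 41 stayed called whichever of the 6 arrays was left out and 29 did so with those 6 fitted alone. Dim signal limits 16 of them, whose dimmer group averaged less than each array's median, which leaves the size of their change uncertain.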
